A study of Mus musculus with 394 samples.

Results

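The libraries compared were 6 of the 394 in the series, namely the full-length RNA-seq libraries of RiboTag immunoprecipitations (IPs) from Cre+ mice that came from the substantia nigra pars reticulata (SNr, 3 libraries) and pars compacta (SNc, 3 libraries). They were picked by their labels, and they set a region crossed by dopaminergic dendrites against the region that holds the dopaminergic cell bodies. The mice were DAT IRES-Cre/wt;RiboTag+/−, 10 to 14 months old, and of both sexes per the study's methods. In these animals Cre is expressed from the dopamine transporter locus and switches ribosomal protein eL22 to a form with an HA epitope, so that an HA antibody pulls down ribosomes of dopamine neurons together with the mRNAs on them. The Cre driver and the tag were shared by all 6 libraries, and no full-length IP without the tag was analysed. IPs from the ventral tegmental area (VTA, 3 libraries) and Input RNA (unprecipitated lysate, 3 libraries per region) were made alongside, and 3′-end IP libraries counted by unique molecular identifier (UMI), 4 Cre+ and 6 Cre− per region, came from mice of the same age range.

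Midbrain dopamine neurons make dopamine from tyrosine in their somata, dendrites and axons, and SNc neurons send long dendrites down into the SNr, where dopamine is released from them. The SNr itself is built of GABAergic projection neurons and receives the axons of striatal spiny neurons, and it also holds a small number of displaced dopaminergic cell bodies. An mRNA on tagged ribosomes from this dissection may therefore have come from dendrites or from those somata, which bulk IPs cannot separate. By fluorescence in situ hybridization the paper saw *Atp2a3*, *Homer2*, *Dgkz* and *Prkca* mRNA in dopaminergic somata of the SNr. It reported no evidence of these mRNAs in dendrites, and concluded that its SNr IPs mainly reflect dopamine neurons located in the SNr. Dopamine neurons are also diverse: a ventral tier of the SNc expresses the retinaldehyde dehydrogenase gene *Aldh1a1* and the transcription factor gene *Sox6*, while calbindin and the vesicular glutamate transporter mark many neurons of the dorsal tier and the VTA. The SNr was taken with a cut that kept away from the SNc, and the tissue left as SNc still held the part of the SNr next to it.

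The SNc IP libraries held 10935547, 7691897 and 5809235 counts and the SNr IP libraries 4030726, 5153095 and 4018290 counts. IPs and Inputs differed in mitochondrially encoded RNA, which made up 0.780 to 3.74% of the counts in all 9 IPs and 26.1 to 29.4% in the 9 Inputs. SNc IP replicate 1 stood apart from the other SNc IPs. Its Spearman correlation over the genes tested was 0.954 to 0.961 with the 3 VTA IPs and 0.949 to 0.952 with the other SNc IPs, and on the first principal component (58.8% of the variance) it lay at −22.3, against 16.9 and 9.59 for the other SNc IPs, −46.9 to −34.2 for the VTA IPs and 25.8 to 56.0 for the SNr IPs. The SNr IPs were not tighter, with correlations of 0.884 to 0.910 among themselves, and SNr IP replicate 1 correlated more closely with each of the 3 SNc IPs (0.912 to 0.931) than with either other SNr IP (0.910 and 0.898). Beside the count of each gene list stands its range when 1 of these 6 IPs was left out, and where a bound differs from the count by more than 1.5 times the library or libraries left out for it are named (SNc 1 is SNc IP replicate 1). The labels do not say whether the libraries of a group came from separate mice, so the p-values measure the spread between these libraries.

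Levels are CPM, counts scaled to a common library size with TMM factors. Differences are log2 fold changes of SNr over SNc IPs with their standard error, and a gene is called where the adjusted p of edgeR's quasi-likelihood test (Benjamini-Hochberg over all genes tested) is under 0.05. Of 15321 genes tested, 1192 were called (7.78%), 614 higher in SNr IPs (4.01%) and 578 lower (3.77%). The 3 SNr and 3 SNc values did not overlap for 1191 genes on the higher side (7.77%) and 2036 on the lower side (13.3%). Leaving out 1 library gave 506 (SNc 3) to 1408 (SNc 1) called genes, and with only the 6 SNr and SNc IPs in the fit, in place of all 9 IPs, it called 707. The gene lists below are described by the number of members called and by their median log2 fold change, against a median of 0.04 over all genes tested. In bulk samples, fewer cells of a type and less RNA per cell cannot be told apart.

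RNAs of other cells and RNAs pulled down without a tag also differed between the 2 groups of IPs, and their part in the results that follow was not tested. A list of 6 mRNAs that were pulled down without tagged ribosomes in libraries of this series, led by *Bcar1* and *Nedd9*, which encode focal adhesion scaffolds, and *Sh3pxd2a*, which encodes a podosome scaffold, summed to 2946, 1770.3 and 2849 CPM in the SNc IPs and 5863, 5923 and 8104 CPM in the SNr IPs, with 139 to 197 CPM in the SNc and SNr Inputs. The groups of IPs did not overlap, and 4 of 5 tested members were higher in SNr IPs (median log2 fold change 1.57), also without any 1 library. Genes of striatal spiny neurons summed to 179, 232 and 252 CPM in the SNc IPs and 639, 578 and 959.6 CPM in the SNr IPs, again without overlap. Astrocyte genes summed to 4779 to 7363 and 6148 to 8227 CPM, oligodendrocyte genes to 2922 to 4424 and 2822 to 3292 CPM and microglial genes to 185 to 316 and 279.5 to 351 CPM, and for these 3 lists the groups overlapped, as they did for endothelial and mural cell genes (1002 to 1338 and 967 to 1174 CPM), of which 10 of 17 tested were nonetheless called higher. Genes of fibroblasts, ependyma and choroid plexus summed to 43.9 to 70.6 CPM in the SNc IPs and 119.5 to 174 CPM in the SNr IPs, without overlap.

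**Figure D1:**
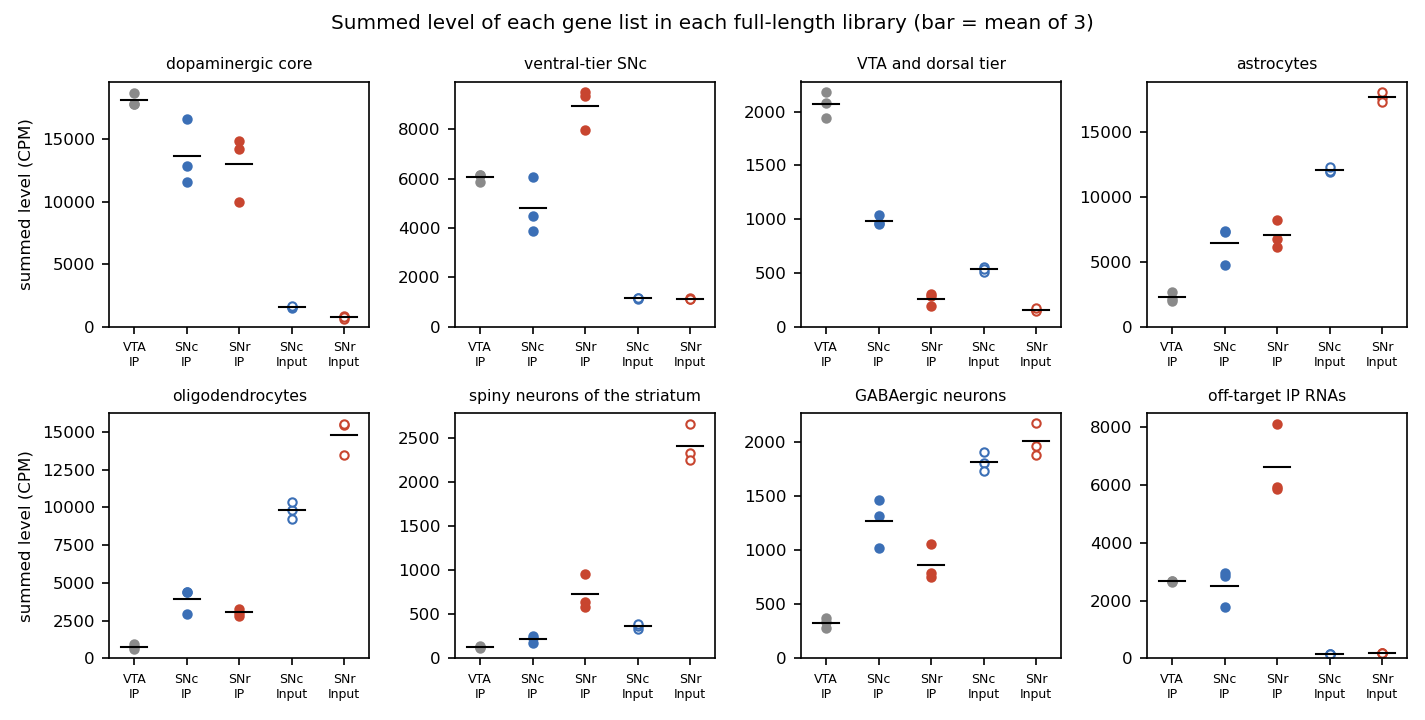
Summed level in CPM (vertical axis, linear and starting at 0) of 8 gene lists in each full-length library, with each point a library, open points for Inputs and bars at the mean of 3. Ventral-tier genes lie higher in all 3 SNr IPs (7977 to 9514 CPM) than in the SNc IPs (3873 to 6063 CPM) and the VTA IPs (5875 to 6165 CPM). Between SNc and SNr IPs the dopaminergic core list overlaps, and off-target and spiny neuron RNAs are higher in the SNr IPs.

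*Th*, which encodes tyrosine hydroxylase, the rate-limiting enzyme of dopamine synthesis, was at 2366, 1137 and 1416 CPM in the SNc IPs and 2313, 2211 and 1519 CPM in the SNr IPs. The groups overlapped, and the log2 fold change was 0.36 ± 0.19, adjusted p = 0.263. *Slc6a3*, the dopamine transporter gene, was at 2957, 2546 and 2612 CPM in SNc and 2635, 2444 and 1866 CPM in SNr IPs (−0.16 ± 0.14, adjusted p = 0.542). *Ddc*, which encodes the decarboxylase that forms dopamine, and *Slc18a2*, which encodes the vesicular monoamine transporter, had log2 fold changes of 0.36 ± 0.19, adjusted p = 0.259 and −0.25 ± 0.15, adjusted p = 0.37. For all 4 genes the 2 groups of libraries overlapped. Without SNc IP replicate 1, which had the highest *Th* level of its group, the differences of *Th* and *Ddc* came to 0.68 and 0.69 and both were called.

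In Input RNA the same genes lay far lower and were lower in the SNr. *Th* was at 123, 113 and 142 CPM in the SNc Inputs and 49.7, 22.1 and 37.9 CPM in the SNr Inputs (−1.82 ± 0.25, adjusted p = 9.5e-06). *Slc6a3* was at 184, 192 and 202 CPM and 78.6, 32.02 and 42.5 CPM (−1.89 ± 0.19, adjusted p = 5.12e-08). The region by fraction term, which tests whether the SNr over SNc difference in IPs differs from that in Inputs, was positive for *Th* (2.12 ± 0.32, adjusted p = 0.000142), *Ddc* (1.79 ± 0.31, adjusted p = 0.000585), *Slc6a3* (1.66 ± 0.25, adjusted p = 0.000127) and *Slc18a2* (1.50 ± 0.23, adjusted p = 0.000198). IP over Input enrichment stood at 5.81 ± 0.26 (log2) for *Th* in the SNr and 3.70 ± 0.22 in the SNc, among 3578 genes enriched in SNr IPs (20.8% of 17235 tested) and 3528 in SNc IPs (20.5%). The off-target mRNA *Bcar1* was enriched too, by 6.64 ± 0.18 in the SNr and 5.59 ± 0.17 in the SNc.

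Of the 24 dopaminergic core genes, all tested, 3 were higher in SNr IPs and 2 lower, with a median log2 fold change of 0.10 (leaving out 1 library gave 0 (SNc 3, SNr 2) to 9 (SNc 1) higher and 1 (SNc 2, SNc 3, SNr 2, SNr 3) to 3 lower). *Nr4a2*, which encodes the orphan nuclear receptor Nurr1 needed for dopaminergic differentiation, was at 173, 67.5 and 55.5 CPM in SNc and 216, 179.9 and 209.6 CPM in SNr IPs (1.05 ± 0.25, adjusted p = 0.0107). *Lmx1b*, a homeobox gene of dopaminergic progenitors that stays on in adult neurons, was at 80.7, 27.2 and 32.9 CPM and 106, 129.5 and 94.8 CPM (1.24 ± 0.27, adjusted p = 0.00427). *Gfra1*, the gene of the GDNF co-receptor, was at 234, 108 and 145 CPM and 284, 339 and 261 CPM (0.91 ± 0.20, adjusted p = 0.00427). In each of these 3 genes SNc IP replicate 1 lay nearer to the SNr IPs than the other SNc IPs did, yet the groups did not overlap. *Slc10a4*, which encodes a synaptic vesicle protein of monoaminergic and cholinergic neurons, was lower, at 593, 626 and 579.8 CPM in SNc and 422, 375 and 312 CPM in SNr IPs (−0.64 ± 0.14, adjusted p = 0.00593). The *Nr4a2* call was lost with DESeq2 and in 5 of the 6 fits that left out 1 library.

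**Figure D2:**
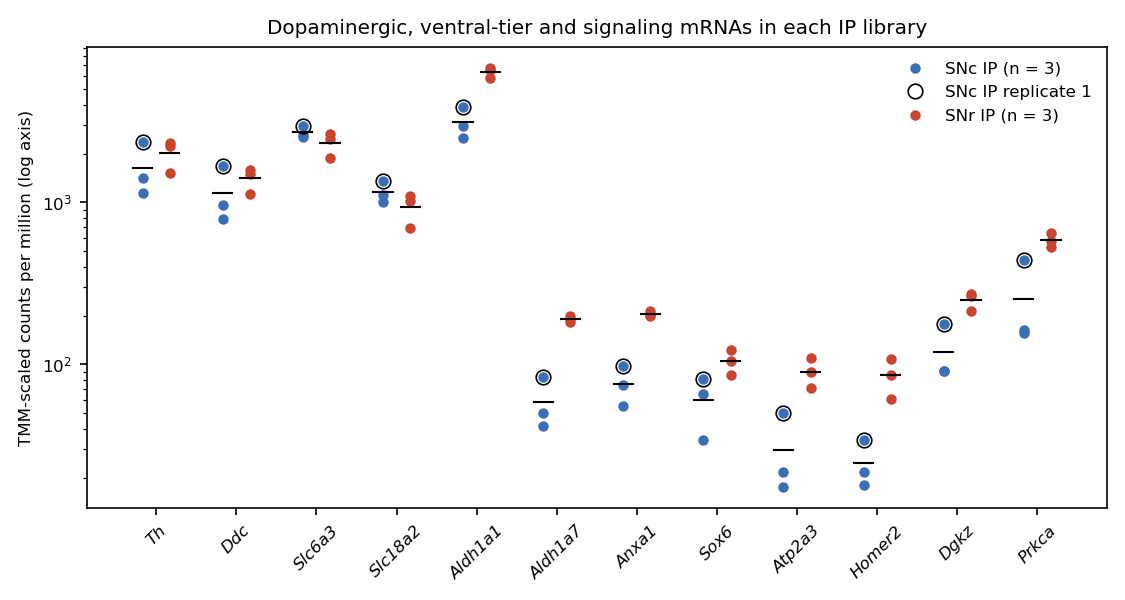
TMM-scaled CPM (vertical axis, logarithmic) of 12 mRNAs in the 3 SNc and 3 SNr IP libraries, with each point a library, bars at the mean and SNc IP replicate 1 ringed. *Th*, *Ddc*, *Slc6a3* and *Slc18a2* overlap between the groups, and the other 8 genes do not, with *Aldh1a1* at 2504 to 3893 CPM in SNc and 5844 to 6751 CPM in SNr IPs.

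Ventral-tier genes were higher in SNr IPs. All 14 members of the list were tested, 7 were higher and 0 lower, and the median log2 fold change was 0.64 (leaving out 1 library gave 4 (SNc 2, SNc 3, SNr 2) to 9 higher and 0 lower). *Aldh1a1* was at 3893, 2504 and 2945 CPM in SNc and 6751, 6568 and 5844 CPM in SNr IPs, without overlap (1.10 ± 0.14, adjusted p = 1.47e-05). Per kilobase of exon it was the more abundant mRNA of the pair in the SNr IPs when set beside *Th*, at 1294 against 852 CPM per kilobase, and the less abundant in the SNc IPs, at 631 against 694 CPM per kilobase. *Anxa1*, which encodes a phospholipid-binding annexin, was at 98.1, 55.4 and 74.7 CPM in SNc and 213, 201 and 200.1 CPM in SNr IPs (1.48 ± 0.20, adjusted p = 1.98e-05). *Sox6* was at 80.7, 34.3 and 65.4 CPM and 105, 123 and 86.5 CPM (0.86 ± 0.23, adjusted p = 0.0196), a call that was lost in 4 of the 6 fits that left out 1 library. *Satb1*, a chromatin organizer gene, was at 178, 76.4 and 86.9 CPM and 322, 349 and 267 CPM (1.50 ± 0.22, adjusted p = 9.97e-05). *Lmo3*, which encodes a transcriptional co-regulator (0.80 ± 0.18, adjusted p = 0.0064), and *Kcnj6*, which encodes the GIRK2 potassium channel (0.77 ± 0.22, adjusted p = 0.0276), were the other called members besides *Aldh1a7*. The markers not called, such as *Fgf1* (0.49), *Ndnf* (0.51) and *Igf1* (0.32), had log2 fold changes above 0 as well.

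In the Inputs *Aldh1a1* was not called, at 351, 369.6 and 388 CPM in the SNc and 371, 355 and 389 CPM in the SNr (0.01 ± 0.12, adjusted p = 1), and *Anxa1* lay at 1.44 to 3.76 CPM in the SNc and 3.11 to 7.47 CPM in the SNr. The region by fraction term was 1.03 ± 0.17, adjusted p = 0.000308 for *Aldh1a1*, 1.81 ± 0.47, adjusted p = 0.0166 for *Aldh1a7* and 2.09 ± 0.32, adjusted p = 0.000142 for *Satb1*, and for *Sox6* (0.53 ± 0.29, adjusted p = 0.282) and *Anxa1* (0.42 ± 0.59, adjusted p = 0.736) it did not pass.

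*Aldh1a7* had the largest log2 fold change of the ventral-tier list, and it is a close relative and neighbour of *Aldh1a1*. It was at 84.0, 41.7 and 50.03 CPM in SNc and 200.1, 191 and 182 CPM in SNr IPs, without overlap (1.74 ± 0.20, adjusted p = 2.82e-06), and at 4.15 to 5.14 CPM in the SNc and 3.48 to 5.28 CPM in the SNr Inputs. *Anxa1* (chromosome 19, 20373428 to 20390944, minus strand), *Aldh1a1* (20492715 to 20643465, plus strand) and *Aldh1a7* (20692953 to 20727562, minus strand; GRCm38, GENCODE vM21) lie within 354 kb that hold 6 annotated genes, 4 of which were tested. The other tested gene, *C730002L08Rik*, was at 0.261 to 1.25 CPM in SNc and 1.09 to 3.17 CPM in SNr IPs and was not called (adjusted p = 0.399). Since reads were counted only where they mapped uniquely, sequence shared by the 2 paralogs bears on their values: 50 stretches of 75 bases, the length of the first read of a pair, occur in transcripts of both genes, 1.01% of those of *Aldh1a1* and 2.51% of those of *Aldh1a7*. The promoters of the pair are shown because these genes moved together; each line gives the 100 bases before the RefSeq start on the gene's own strand, from chr19:20601868-20601967 (plus strand) for *Aldh1a1*, whose RefSeq start lies inside the longer GENCODE gene model, and chr19:20727557-20727656 (minus strand) for *Aldh1a7* (GRCm38.p6).
Aldh1a1: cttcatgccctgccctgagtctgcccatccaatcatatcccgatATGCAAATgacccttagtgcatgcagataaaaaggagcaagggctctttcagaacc
Aldh1a7: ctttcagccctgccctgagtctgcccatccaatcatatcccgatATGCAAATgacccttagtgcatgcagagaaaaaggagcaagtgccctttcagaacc
Capitals mark the octamer ATGCAAAT, the binding motif of POU factors, which was looked for after the sequences had been read, and it begins 56 bases before the start in both. The 2 stretches are identical at 94 of 100 bases, with a shared run of 65 bases. In the 100 bases before the start, 212 of 32851 RefSeq promoters (0.645%) hold the octamer on either strand. For *Aldh1a1* and *Aldh1a7* only RefSeq starts with the octamer in these bases were kept for display. Its presence in both sequences was thus fixed by that choice and is not a result. Any other RefSeq start of these genes is not shown.

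Genes that mark the VTA and the dorsal tier were lower in SNr IPs. Of 15 members 14 were tested, 7 were lower and 0 higher, and the median log2 fold change was −1.67 (leaving out 1 library gave 0 higher and 5 to 7 lower). *Calb1*, which encodes the calcium buffer calbindin, was at 189.9, 204 and 169 CPM in SNc, 59.2, 77.4 and 42.5 CPM in SNr and 678, 613 and 682 CPM in VTA IPs, and the SNr over SNc log2 fold change was −1.58 ± 0.19, adjusted p = 4.41e-06. *Calb2*, the calretinin gene, was at 448, 359 and 453 CPM in SNc and 125, 102 and 73.0 CPM in SNr IPs (−2.01 ± 0.18, adjusted p = 2.15e-08). *Slc17a6*, which encodes the vesicular glutamate transporter VGLUT2, was at 94.8, 180.1 and 174 CPM and 14.1, 14.1 and 18.8 CPM (−3.19 ± 0.32, adjusted p = 2.52e-07). In all 3 genes the highest SNr IP lay below the lowest SNc IP. *Tacr3*, the neurokinin 3 receptor gene (−2.60 ± 0.31, adjusted p = 4.07e-06), the peptide gene *Adcyap1* (−3.57 ± 0.78, adjusted p = 0.0041), the neurotensin gene *Nts* (3.66, 7.14 and 2.67 CPM in SNc and 0, 0 and 0.212 CPM in SNr IPs, adjusted p = 0.0377) and the cholecystokinin gene *Cck* (−1.08 ± 0.26, adjusted p = 0.0103) were lower too.

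Input RNA showed a like difference for most of these genes. *Slc17a6* was at 222, 182 and 178 CPM in the SNc Inputs and 14.3, 7.81 and 16.6 CPM in the SNr Inputs (−4.03 ± 0.27, adjusted p = 2.63e-11), and *Calb2* differed by −2.43 ± 0.19, adjusted p = 2.58e-10. The Inputs of the called members were lower in the SNr for 6 of 7, where 5.48% of all genes were lower in SNr Inputs and 5.07% higher. *Calb1* was the exception, at 59.4, 55.9 and 62.3 CPM in the SNc Inputs and 60.5, 74.3 and 71.8 CPM in the SNr Inputs (0.20 ± 0.16, adjusted p = 0.57), and its region by fraction term was −1.84 ± 0.23, adjusted p = 1.68e-05. Of the 14 terms of the list 0 were called positive and 1 negative, that of *Calb1* (3.89% and 4.61% of all genes). IP over Input, 5 of the 14 genes were higher and 3 lower in the SNr, and 4 and 2 in the SNc. Among all genes 20.8% were higher in the SNr and 20.5% in the SNc. Whether the lower IP levels lay in dopamine neurons was not tested.

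**Figure D3:**
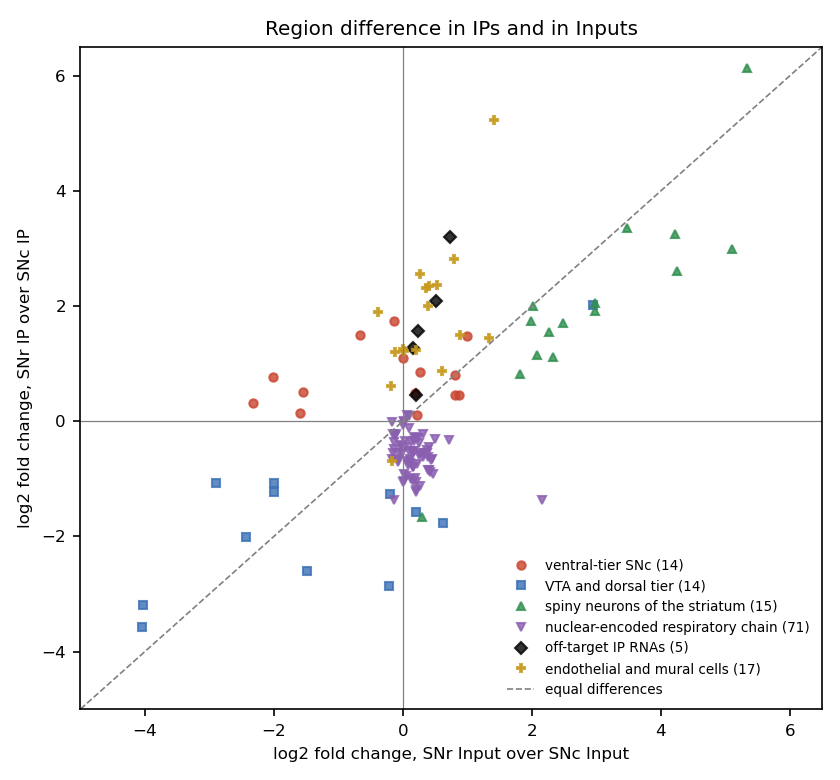
Log2 fold change of SNr over SNc in Inputs (horizontal) and in IPs (vertical) for the tested members of 6 gene lists, with each point a gene and the dashed line marking equal differences. Spiny neuron genes lie to the right in both, respiratory chain genes lie near 0 in Inputs and mostly below 0 in IPs (median −0.55), and off-target mRNAs lie near 0 in Inputs and above 0 in IPs.

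Lipid and calcium signaling genes changed in both directions. Of 49 genes of diacylglycerol and phosphoinositide signaling, all tested, 10 were higher in SNr IPs and 1 was lower (median 0.32; leaving out 1 library gave 4 (SNc 2, SNc 3) to 8 higher and 1 lower), and in the fit with only the 6 IPs 5 were higher. *Prkca* (chromosome 11, 107933387 to 108343928, minus strand), which encodes protein kinase C alpha, was at 440.3, 164 and 157 CPM in SNc and 643, 578 and 527 CPM in SNr IPs (1.25 ± 0.24, adjusted p = 0.0015). *Dgkz* (chromosome 2, 91932824 to 91975864, minus strand), the gene of a diacylglycerol kinase, which ends diacylglycerol signals, was at 177, 91.2 and 91.4 CPM and 272, 266 and 212 CPM (1.10 ± 0.20, adjusted p = 0.00101). The groups did not overlap for either gene, though SNc IP replicate 1 lay between the other SNc IPs and the SNr IPs. *Dgkb* (1.00 ± 0.20, adjusted p = 0.00273), *Dgkh* (0.83 ± 0.23, adjusted p = 0.0275), *Plcb1*, a phospholipase C gene (0.87 ± 0.19, adjusted p = 0.0047), and the kinase genes *Prkce* (0.58 ± 0.17, adjusted p = 0.0313), *Prkcb* (0.67 ± 0.17, adjusted p = 0.0135), *Itpkb* (1.00 ± 0.31, adjusted p = 0.0448) and *Itpka* (2.57 ± 0.74, adjusted p = 0.0309) were higher as well, with *Pip5k1c* at 0.54 ± 0.17, adjusted p = 0.0464. *Prkcd*, the protein kinase C delta gene, was lower, at 141, 311 and 293 CPM in SNc and 22.8, 21.4 and 30.5 CPM in SNr IPs (−3.26 ± 0.29, adjusted p = 4.07e-08), and lower in SNr Inputs (−3.28 ± 0.35, adjusted p = 1.12e-07). In Inputs 5 of the 10 higher genes were also higher in the SNr (5.07% of all genes were), among them *Dgkb* (1.58 ± 0.14, adjusted p = 6.26e-09). Of the 9 that the UMI libraries could test, 4 were higher in Cre− than in Cre+ IPs and 1, *Prkca* (1.32 ± 0.35, adjusted p = 0.00264), was higher in Cre+ IPs. Among all genes 12.9% were higher in Cre− and 6.38% in Cre+ IPs. That background depends on the scaling: with DESeq2's size factors 712 genes were higher in Cre+ IPs and 1445 in Cre− IPs, and with edgeR's TMMwsp factors 1206 and 813. *Dgkz* was in neither set, with Input levels of 108, 119.6 and 98.2 CPM in SNc and 102, 105 and 87.1 CPM in SNr (−0.12 ± 0.18, adjusted p = 0.828) and a region by fraction term of 1.15 ± 0.25, adjusted p = 0.00511.

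Among 43 tested genes of calcium pumps, stores and buffers (of 44), 5 were higher and 7 lower (median −0.19; leaving out 1 library gave 3 (SNc 3, SNr 2, SNr 3) to 6 higher and 2 (SNc 3) to 7 lower). *Atp2a3* (chromosome 11, 72961169 to 72993044, plus strand), which encodes SERCA3, a pump that returns calcium to the endoplasmic reticulum, was at 50.1, 21.7 and 17.4 CPM in SNc and 110.1, 89.5 and 71.1 CPM in SNr IPs, without overlap (1.58 ± 0.29, adjusted p = 0.00122). Its Input levels were 11.2, 10.5 and 10.9 CPM and 8.66, 5.35 and 8.04 CPM (−0.63 ± 0.44, adjusted p = 0.492), and the region by fraction term was 2.14 ± 0.51, adjusted p = 0.00924. *Atp2a2*, the gene of the widespread pump SERCA2, was lower (−0.55 ± 0.14, adjusted p = 0.0127), and per kilobase of exon it stood at 102 CPM against 17.1 CPM for *Atp2a3* in the SNr IPs. *Itpr1*, the gene of the receptor through which inositol trisphosphate opens calcium stores, was at 154, 142 and 142 CPM in SNc and 236, 295 and 361 CPM in SNr IPs (1.09 ± 0.17, adjusted p = 0.000124), with Inputs also higher in the SNr (1.49 ± 0.12, adjusted p = 1.29e-09). *Vsnl1*, which encodes the calcium sensor visinin-like 1, was lower, at 1562, 1606 and 1852 CPM and 932, 824 and 549 CPM (−1.06 ± 0.16, adjusted p = 9.05e-05), in Inputs as well (−1.37 ± 0.14, adjusted p = 2.73e-08). *Kcnip3* (0.86), *Kcnip2* (1.92) and *Ryr1* (2.44) were the other higher genes, and *Hpcal1* (−1.49), *Necab1* (−1.06), *Ryr2* (−0.91), *Slc24a2* (−0.58) and *Calm2* (−0.63) the other lower ones.

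Postsynaptic scaffold and dendritic mRNAs were higher in SNr IPs for 11 of 44 genes, all tested, and lower for 1 (median 0.30; leaving out 1 library gave 6 (SNc 3) to 11 higher and 1 to 2 (SNc 1) lower). *Homer2* (chromosome 7, 81600481 to 81707527, minus strand), which encodes a scaffold that ties glutamate receptors to calcium stores, was at 34.1, 18.1 and 21.6 CPM in SNc and 86.4, 61.4 and 109 CPM in SNr IPs (1.80 ± 0.25, adjusted p = 4.04e-05). *Cnksr2*, which encodes a scaffold of the postsynaptic density, was at 124, 66.0 and 78.3 CPM and 249.96, 306 and 245 CPM (1.62 ± 0.20, adjusted p = 5.07e-06). *Begain*, which encodes a partner of PSD-95, was at 112, 73.2 and 63.2 CPM and 156, 197 and 198 CPM (1.19 ± 0.19, adjusted p = 0.00032). The SNr and SNc libraries did not overlap for any of the 3 genes. *Ppp1r9a* (1.42 ± 0.30, adjusted p = 0.00347), *Iqsec2* (0.95 ± 0.25, adjusted p = 0.0186), *Dlgap3* (0.92 ± 0.20, adjusted p = 0.00508), *Shank2* (0.84 ± 0.24, adjusted p = 0.0277), *Baiap2* (1.70), *Psd* (0.91) and *Ppp1r9b* (0.73) were higher too. *Ddn*, the gene of the dendritic protein dendrin, was at 8.54, 4.15 and 7.999 CPM in SNc and 31.5, 19.3 and 74.2 CPM in SNr IPs (2.61 ± 0.45, adjusted p = 0.00062) and at 17.04, 16.9 and 31.1 CPM and 283, 321 and 234 CPM in the Inputs, where the difference was 3.69 ± 0.27, adjusted p = 1.46e-10. The Inputs were higher in the SNr for 5 of the 11 genes and lower for 1, *Begain* (−0.66 ± 0.16, adjusted p = 0.00547), where 5.07% and 5.48% of all genes were. The region by fraction term was positive for *Homer2* (2.35 ± 0.31, adjusted p = 2.99e-05) and *Begain* (1.79 ± 0.22, adjusted p = 1.58e-05). In the whole list 7 terms were called positive and 4 negative (3.89% and 4.61% of all genes). IP over Input, 7 of the 44 genes were higher and 23 lower in the SNr, and 2 and 27 in the SNc. Over all 17235 genes these counts were 3578 and 3224 in the SNr and 3528 and 3165 in the SNc. Of the 11 genes, 1 was higher in Cre+ and 3 in Cre− UMI IPs (6.38% and 12.9% of all genes). *Lrrtm1*, a synaptic adhesion gene, was lower (−2.49 ± 0.49, adjusted p = 0.00203).

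G protein and cAMP signaling genes were higher for 11 of 54, all tested, and lower for 2 (median 0.15; leaving out 1 library gave 5 (SNc 2, SNr 2) to 10 higher and 2 lower). The leading members are abundant in striatal spiny neurons: *Pde10a*, a phosphodiesterase gene, at 67.2, 60.00 and 34.97 CPM in SNc and 245, 203 and 286 CPM in SNr IPs (2.20 ± 0.20, adjusted p = 4.07e-08), *Rgs9* (2.70 ± 0.30, adjusted p = 1.76e-06), *Gng7* (2.17 ± 0.33, adjusted p = 0.000119) and *Adcy5* (1.201 ± 0.19, adjusted p = 0.000188). Their RNA was also higher in the SNr Inputs, at 71.3, 71.8 and 77.9 CPM against 531, 619 and 462 CPM for *Pde10a*, and 7 of the 11 were higher there, as were 5.07% of all genes. *Rgs6* (0.75 ± 0.20, adjusted p = 0.0211) and *Rgs8* (0.64 ± 0.18, adjusted p = 0.0269), which encode GTPase activators that shorten G protein signals, had Input differences of −0.70 and −0.37 and region by fraction terms of 1.38 ± 0.24, adjusted p = 0.000501 and 0.94 ± 0.20, adjusted p = 0.00299. *Rgs16* (−3.59) and *Gng3* (−0.96) were lower.

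With all libraries in the fit, the called members of the glutamate receptor, GABA and glycine receptor and sodium channel lists were all lower in SNr IPs. Of 24 tested glutamate receptor genes (of 25) 0 were higher and 4 lower (median −0.27; leaving out 1 library gave 0 to 1 (SNc 1, SNr 3) higher and 1 (SNc 2, SNc 3, SNr 2) to 4 lower). Of 19 tested GABA and glycine receptor genes (of 20) 0 were higher and 5 lower (median −0.45, where leaving out 1 library gave 0 higher and 3 (SNc 2, SNr 3) to 8 (SNc 1) lower). Of the 14 genes on the sodium channel list, which holds *Fgf12* though that gene does not itself encode a channel, 0 were higher and 4 lower (median −0.17, where leaving out 1 library gave 0 to 1 (SNc 1) higher and 3 to 4 lower). *Grin1*, the gene of the obligatory NMDA receptor subunit, was at 371, 389.7 and 403 CPM in SNc and 299.8, 251 and 198 CPM in SNr IPs (−0.58 ± 0.16, adjusted p = 0.0214). *Gabrb2*, a GABA-A receptor subunit gene, was at 122, 177 and 168 CPM and 57.9, 78.9 and 92.2 CPM (−0.96 ± 0.20, adjusted p = 0.00411), and *Scn1a*, a sodium channel gene, at 259, 299 and 289 CPM and 99.2, 157 and 151 CPM (−0.98 ± 0.18, adjusted p = 0.000984). The libraries of the 2 groups did not overlap for these 3 genes. *Grm4* (−1.78), *Grm7* (−1.52), *Grin3a* (−0.95), *Glra1* (−1.51), *Glra2* (−4.72), *Scn8a* (−0.88) and *Fgf12* (−0.64) were lower as well. In Inputs 3 of the 4 lower glutamate receptor genes and 3 of the 4 lower genes on the sodium channel list were also lower in the SNr. The same held for 1 of the 5 lower GABA and glycine receptor genes (5.48% of all genes were lower). In the UMI libraries 0 of the lower glutamate receptor genes, 2 of the GABA and glycine receptor genes and 3 of those on the sodium channel list were higher in Cre− IPs. Among all genes 12.9% were, and 0 of these lower genes were higher in Cre+ IPs. *Scn1a* (−2.07 ± 0.25, adjusted p = 1.66e-11) was lower in Cre+ than in Cre− UMI IPs. Genes of GABAergic neurons summed to 1020.5, 1464 and 1314 CPM in the SNc IPs and 755, 784 and 1053 CPM in the SNr IPs, where the groups overlapped, and of 14 tested genes on that list (of 15) 0 were higher and 2 lower (leaving out 1 library gave 0 higher and 1 (SNc 2, SNc 3, SNr 2) to 3 lower). *Gad2*, a glutamate decarboxylase gene, was at 198, 310.0 and 274 CPM and 84.6, 78.8 and 121 CPM in the IPs (−1.40 ± 0.20, adjusted p = 4.71e-05) and did not pass in the Inputs (−0.24 ± 0.14, adjusted p = 0.341), while *Gad1* was at −0.54 ± 0.22, adjusted p = 0.127 in the IPs. The part of GABAergic neuron RNA in the receptor and channel results was not tested.

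Of 57 tested potassium and HCN channel genes (of 58), 4 were higher and 9 lower (median −0.14; leaving out 1 library gave 1 (SNc 3) to 5 higher and 6 to 11 lower). Of the 8 lower genes that the UMI libraries could test, 6 were higher in Cre− and 0 in Cre+ IPs, where 12.9% and 6.38% of all genes were. *Kcnj3*, which encodes the channel subunit GIRK1, was lower, at 31.7, 40.3 and 50.3 CPM in SNc and 7.83, 11.03 and 8.67 CPM in SNr IPs (−2.03 ± 0.35, adjusted p = 0.000499), where its partner *Kcnj6* rose. *Kcnc1* (−0.97 ± 0.18, adjusted p = 0.00149) and *Kcnc2* (−1.27 ± 0.22, adjusted p = 0.0005), genes of fast Kv3 channels, were lower too. *Kcnd3*, the gene of the A-type channel Kv4.3, was higher (0.75 ± 0.21, adjusted p = 0.0249). *Kcnj4* was at 0 in all 3 SNc IPs and at 10.7, 9.34 and 12.5 CPM in the SNr IPs, with 50.00, 43.2 and 36.3 CPM in the SNr Inputs. Among 22 voltage-gated calcium channel genes, all tested, 1 was higher, *Cacnb3* (0.85 ± 0.23, adjusted p = 0.0211), and 2 were lower, *Cacna2d1* (−1.37 ± 0.20, adjusted p = 0.000103) and *Cacng3* (−1.12 ± 0.31, adjusted p = 0.0254), where leaving out 1 library gave 0 (SNc 2, SNc 3, SNr 2, SNr 3) to 2 (SNr 1) higher and 1 (SNc 2, SNc 3, SNr 2, SNr 3) to 2 lower. *Cacna1d*, the gene of the Cav1.3 pacemaking channel, was at 28.5, 17.04 and 21.8 CPM in SNc and 22.8, 49.1 and 51.4 CPM in SNr IPs and was not called (0.93 ± 0.32, adjusted p = 0.0774).

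Of 44 tested receptor genes for monoamines, acetylcholine and peptides (of 52), 4 were higher and 2 lower (median 0.12; leaving out 1 library gave 1 (SNc 2, SNc 3, SNr 2) to 6 higher and 2 lower). *Drd1*, the D1 receptor gene of spiny neurons, was at 2.26, 1.38 and 5.49 CPM in SNc and 25.9, 11.2 and 41.2 CPM in SNr IPs (3.25 ± 0.55, adjusted p = 0.000399) and at 54.9, 59.8 and 42.5 CPM in the SNr Inputs. *Drd2*, whose product is the dopamine autoreceptor, had a log2 fold change of 0.65 ± 0.21, adjusted p = 0.0572. *Chrna4*, a nicotinic receptor subunit gene, was higher (0.65 ± 0.19, adjusted p = 0.0393), with a region by fraction term of 1.70 ± 0.27, adjusted p = 0.000185, and *Gpr26*, an orphan receptor gene, was higher too (0.82 ± 0.23, adjusted p = 0.0258), although its libraries overlapped. *Htr2c*, the serotonin 2C receptor gene (−2.58 ± 0.37, adjusted p = 6.25e-05), and *Chrm2* (−3.01 ± 0.55, adjusted p = 0.000955) were lower.

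Synaptic vesicle release genes split. Of 54 tested (of 55), 7 were higher and 10 lower (median 0.08; leaving out 1 library gave 2 (SNr 2) to 15 (SNc 1) higher and 8 to 12 lower). *Cplx2*, the complexin 2 gene, was at 796, 462 and 570.1 CPM in SNc and 1080.1, 1059.8 and 1148 CPM in SNr IPs (0.91 ± 0.16, adjusted p = 0.000544), and *Bsn*, the gene of the active zone scaffold bassoon, at 258, 160.0 and 173 CPM and 416, 384 and 387 CPM (1.06 ± 0.17, adjusted p = 0.000323). *Rab3c* (0.94 ± 0.19, adjusted p = 0.00279), *Rims4* (1.06 ± 0.22, adjusted p = 0.00341), *Sv2c*, a vesicle protein gene of dopamine neurons (0.90 ± 0.23, adjusted p = 0.0145), *Ppfia4* (0.76 ± 0.22, adjusted p = 0.032) and *Syt17* (0.76 ± 0.23, adjusted p = 0.0367) were higher too. *Syn2*, the synapsin 2 gene, was lower, at 153, 166 and 182 CPM in SNc and 41.99, 68.6 and 55.6 CPM in SNr IPs (−1.51 ± 0.20, adjusted p = 2.16e-05), and *Sncb* (−0.68 ± 0.15, adjusted p = 0.00531) and *Sncg* (−0.79 ± 0.16, adjusted p = 0.00347) were lower as well. The libraries of the 2 groups did not overlap for *Cplx2*, *Bsn* or *Syn2*. *Snap25* (−0.49), *Syt2* (−1.15), *Vamp1* (−0.85), *Doc2a* (−2.62), *Chga* (−0.79) and *Chgb* (−0.66) were also lower. In Inputs 8 of the 10 lower genes were also lower in the SNr, as were 5.48% of all genes.

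Among 33 tested neuropeptide and growth factor genes (of 40), 3 were higher and 4 lower (median −0.07; leaving out 1 library gave 1 (SNc 1, SNc 2, SNc 3) to 3 higher and 2 (SNr 2) to 4 lower). *Penk* (1.91 ± 0.27, adjusted p = 5.63e-05) and *Tac1* (1.74 ± 0.50, adjusted p = 0.0309), the enkephalin and substance P precursor genes, are markers of spiny neurons, and *Mdk* was the third (1.97). All 3 were higher in SNr Inputs, where 5.07% of all genes were. *Ntf3*, the neurotrophin 3 gene, was at 14.4, 19.6 and 17.3 CPM in SNc and 6.74, 0.17 and 0.212 CPM in SNr IPs (−2.88 ± 0.64, adjusted p = 0.00495). *Pnoc* was at 0 in all 3 SNr IPs and at 7.40, 6.22 and 5.18 CPM in the SNc IPs, and *Vgf* (−1.19) and *Sst* (−1.60) were lower. Cell adhesion and guidance genes were higher for 5 and lower for 16 of 88 tested (of 90; median −0.18; leaving out 1 library gave 0 (SNc 3) to 6 higher and 6 (SNc 2) to 16 lower). *Unc5d* (−2.17 ± 0.45, adjusted p = 0.00331), a netrin receptor gene, *Pcdh9* (−1.18 ± 0.20, adjusted p = 0.000374) and *Cdh2* (−0.93 ± 0.20, adjusted p = 0.00427) were among the lower, and *Ntn1*, the netrin 1 gene (0.90 ± 0.23, adjusted p = 0.017), *Robo2* (0.65 ± 0.16, adjusted p = 0.0139) and *Pcdh15* (1.12 ± 0.33, adjusted p = 0.0326) among the higher. Of the 16 lower genes 13 were lower in SNr Inputs, where 5.48% of all genes were.

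The respiratory chain and ribosomal protein genes that were called were all lower in SNr IPs, and most members of both lists were not called. Of 71 tested genes of the nuclear-encoded respiratory chain (of 74), 0 were higher and 25 lower (median −0.55; leaving out 1 library gave 0 higher and 13 (SNc 3) to 41 (SNc 1) lower). *Uqcrh*, a complex III subunit gene, was at 110.0, 159 and 160.3 CPM in SNc and 68.7, 66.9 and 38.1 CPM in SNr IPs (−1.23 ± 0.22, adjusted p = 0.000776), and *Cox7b*, a complex IV subunit gene, at 220.2, 327 and 329 CPM and 148, 151 and 135 CPM (−0.95 ± 0.17, adjusted p = 0.00109), without overlap in either. The list summed to 11601, 13739 and 13902 CPM in the SNc IPs, 9936, 9756 and 8483 CPM in the SNr IPs and 9000.3 to 9648 CPM in the VTA IPs; the SNr and VTA ranges overlapped and the SNc IPs lay above both. In the Inputs edgeR called 0 of the 71 genes in either direction (8 at an unadjusted p under 0.05), and the sums were 6166 to 6365 CPM in the SNc and 6499 to 6952 CPM in the SNr. The region by fraction term was called for 37 of 71, all negative, where 3.89% of all genes were called positive and 4.61% negative. Of the 25 lower genes 15 were higher in Cre+ than in Cre− UMI IPs, where 6.38% of all genes were.

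Of 73 tested cytosolic ribosomal protein genes (of 75), 0 were higher and 11 lower (median −0.42; leaving out 1 library gave 0 higher and 4 (SNc 2, SNc 3, SNr 3) to 19 (SNc 1) lower). *Rpl3* was at 73.8, 97.0 and 78.1 CPM in SNc and 39.6, 29.9 and 49.9 CPM in SNr IPs (−1.01 ± 0.23, adjusted p = 0.00565), and *Rps24* had a log2 fold change of −0.91 ± 0.23, adjusted p = 0.0139. Several ribosomal protein genes have near-identical processed pseudogenes, so that uniquely mapped reads may undercount them. Of 8 tested mitochondrially encoded genes (of 13), 0 were higher and 2 lower, *mt-Co1* at 857, 1923 and 2172 CPM and 523, 666 and 1027 CPM (−1.10 ± 0.24, adjusted p = 0.00504) and *mt-Nd5* (−1.04 ± 0.29, adjusted p = 0.0278). This count was 0 with DESeq2, and leaving out 1 library gave 0 higher and 0 (SNc 3, SNr 1, SNr 2) to 8 (SNc 1) lower. In both genes the low SNc value was that of SNc IP replicate 1, and the groups overlapped. Of 19 glycolytic genes, all tested, 1 was higher, the glucose transporter gene *Slc2a1* (1.22 ± 0.24, adjusted p = 0.00203), which endothelial cells express, and 0 were lower (leaving out 1 library gave 1 to 3 (SNc 1) higher and 0 to 1 (SNc 1) lower).

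Of 17 genes linked to Parkinson's disease, all tested, 0 were higher and 3 lower. *Park7*, which encodes the redox sensor DJ-1, was at 198, 272 and 296 CPM in SNc and 173, 141 and 120.3 CPM in SNr IPs (−0.75 ± 0.18, adjusted p = 0.0111). *Chchd2*, which encodes a mitochondrial intermembrane space protein, was at −0.99 ± 0.19, adjusted p = 0.00192 and *Vps13c*, which encodes a lipid transfer protein, at −0.95 ± 0.19, adjusted p = 0.00203. *Atp13a2*, the gene of a lysosomal polyamine transporter, was at 219.9, 129 and 129 CPM and 261, 242 and 182 CPM and was not called (0.57 ± 0.19, adjusted p = 0.06). For this list leaving out 1 library gave 0 to 2 (SNc 1) higher and 2 to 3 lower. Of 38 tested genes of aldehyde and dopamine catabolism and oxidative defence (of 39), 0 were higher and 3 lower (leaving out 1 library gave 0 to 1 (SNr 3) higher and 1 (SNc 2, SNr 1, SNr 2, SNr 3) to 3 lower), *Sod1*, the superoxide dismutase 1 gene (−0.79 ± 0.16, adjusted p = 0.00273), *Gsta4*, which encodes a glutathione transferase for lipid aldehydes (−0.68 ± 0.20, adjusted p = 0.036), and *Hmox1* (5.05, 9.67 and 2.67 CPM in SNc and 0, 0.17 and 0.212 CPM in SNr IPs, adjusted p = 0.0325).

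Cytoskeleton and transport genes were higher for 3 and lower for 8 of 46, all tested (median 0.01; leaving out 1 library gave 1 (SNc 3, SNr 3) to 3 higher and 1 (SNr 2) to 10 lower). *Dync1h1*, the dynein heavy chain gene, was at 2446, 3063 and 2669 CPM in SNc and 1301, 1197 and 1835 CPM in SNr IPs (−0.86 ± 0.18, adjusted p = 0.00417), and *Stmn1*, which encodes the tubulin-binding protein stathmin, at 207, 249.8 and 297 CPM and 127, 138 and 97.1 CPM (−0.98 ± 0.18, adjusted p = 0.00086). *Nefl* (−0.79), *Nefm* (−0.73), *Kif5a* (−0.45), *Map1a* (−0.51), *Map1b* (−0.45) and *Stmn3* (−0.48) were lower as well. The spectrin gene *Sptbn1* (0.85 ± 0.22, adjusted p = 0.0155) and the linker gene *Macf1* (0.79) were among the higher, and both were higher in Cre− than in Cre+ UMI IPs. So were 6 of the 8 lower genes, among them *Nefl* (−2.23 ± 0.17, adjusted p = 3.26e-23, Cre+ over Cre−), and 2 were higher in Cre+ IPs. Among all genes 12.9% were higher in Cre− and 6.38% in Cre+ IPs. Of 9 tested nuclear RNAs (of 10), 3 were higher and 0 lower (leaving out 1 library gave 2 to 3 higher and 0 lower), with *Malat1*, a noncoding RNA of nuclear speckles, at 402, 804 and 913 CPM in SNc, 1134, 1441 and 1780.2 CPM in SNr and 8306 to 9110.0 CPM in the SNr Inputs (1.10 ± 0.23, adjusted p = 0.00397). *Neat1* (1.67 ± 0.34, adjusted p = 0.00319) and *Kcnq1ot1* (1.40 ± 0.42, adjusted p = 0.038) were the other 2, and all 3 were higher in Cre− IPs, where 12.9% of all genes were. Of 15 tested immediate early genes (of 19), 5 were higher and 0 lower (leaving out 1 library gave 2 (SNr 2) to 4 higher and 0 lower), among them *Egr1* at 8.62, 11.7 and 10.5 CPM and 22.8, 32.4 and 28.6 CPM (1.54 ± 0.35, adjusted p = 0.006). In Inputs 2 of these 5 genes were also higher in the SNr, as were 5.07% of all genes. The region by fraction term was called for 0 of the 19 (3.89% of all genes were called positive and 4.61% negative).

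**Figure D4:**
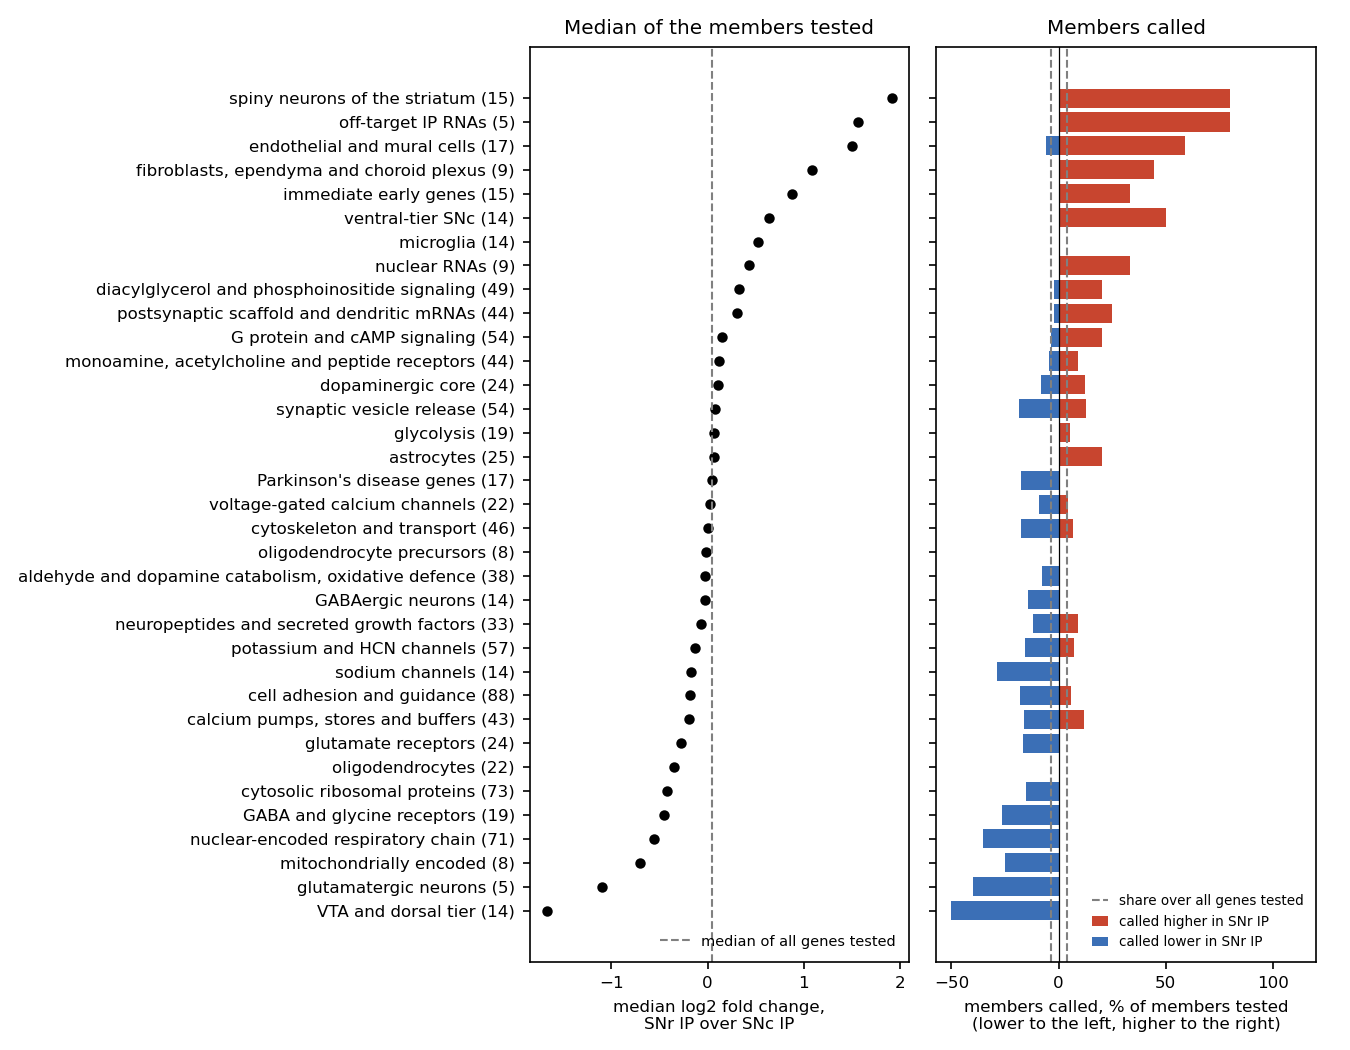
Left, median log2 fold change of SNr over SNc IPs for the tested members of 35 gene lists (number tested in brackets). Right, percentage of those members called higher (to the right) or lower (to the left), with dashed lines at the shares over all genes tested, 4.01% higher and 3.77% lower. Spiny neuron, off-target and endothelial genes stand at the upper end and VTA and dorsal-tier genes at the lower end.

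Markers of other cells that were higher in SNr IPs fell into 4 lists. Of 15 spiny neuron genes, all tested, 12 were higher and 0 lower (median 1.91; leaving out 1 library gave 9 to 11 higher and 0 lower), with *Ppp1r1b*, the DARPP-32 gene, at 11.1, 12.6 and 9.25 CPM in SNc and 83.8, 98.8 and 143 CPM in SNr IPs (3.35 ± 0.26, adjusted p = 1.87e-09). All 12 were higher in SNr Inputs (5.07% of all genes were), where the list summed to 2250.0 to 2661 CPM against 337 to 392 CPM in the SNc. Of 25 astrocyte genes, all tested, 5 were higher and 0 lower (median 0.06). Without SNc IP replicate 1, 4 were higher and 2 lower with a median of −0.22, and leaving out each other library gave 3 to 5 higher and 0 lower. *Gfap*, the intermediate filament gene of reactive and white matter astrocytes, was at 69.3, 73.2 and 90.02 CPM in SNc and 710.3, 820.0 and 1181 CPM in SNr IPs (3.62 ± 0.23, adjusted p = 1.11e-10) and at 185, 196 and 216 CPM and 1111, 1131 and 1173 CPM in the Inputs. *Aqp4* (1.12), *Gja1* (0.84), *Agt* (1.24) and *Apoe* (0.78) were higher too, in IPs and Inputs alike, and all 5 were higher in Cre− than in Cre+ UMI IPs, where 12.9% of all genes were.

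Of 17 tested endothelial and mural cell genes (of 18), 10 were higher and 1 lower (median 1.50; leaving out 1 library gave 7 to 10 higher and 1 lower), and of 9 tested genes of fibroblasts, ependyma and choroid plexus (of 14), 4 were higher and 0 lower, also without any 1 library. *Cldn5*, the tight junction gene of endothelium, was at 2.79, 14.4 and 8.94 CPM in SNc and 33.3, 40.7 and 42.7 CPM in SNr IPs (2.31 ± 0.41, adjusted p = 0.00085), and *Acta2*, a smooth muscle actin gene, at 0.436, 1.73 and 1.41 CPM and 41.8, 57.2 and 18.6 CPM (5.23 ± 0.59, adjusted p = 6.16e-07). The groups did not overlap for either. *Cldn5* did not pass in Inputs (0.36 ± 0.36, adjusted p = 0.678), nor did *Acta2* (1.42 ± 0.70, adjusted p = 0.246), and 1 of the 10 higher genes was higher there, as were 5.07% of all genes. *Vim*, the vimentin gene of glia and vessels, was at 6.01, 22.0 and 29.01 CPM and 147, 162 and 159 CPM (3.23 ± 0.30, adjusted p = 6.26e-08), and *Myoc*, which encodes the secreted protein myocilin, was at 5.66, 11.98 and 5.96 CPM and 187, 151 and 242 CPM (4.68 ± 0.31, adjusted p = 1.11e-10). Of 22 oligodendrocyte, 8 oligodendrocyte precursor and 14 microglial genes tested, 0 were called in either direction by edgeR (6, 1 and 2 at an unadjusted p under 0.05), and 1 by DESeq2, and without SNc IP replicate 1, 6 oligodendrocyte genes were lower.

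*Acaca*, the gene of acetyl-CoA carboxylase, the first enzyme of fatty acid synthesis, was among the 12 higher genes with the smallest p. It was at 153, 73.4 and 87.0 CPM in SNc and 670.0, 588 and 998 CPM in SNr IPs, without overlap (2.89 ± 0.22, adjusted p = 1.57e-09), and at 62.9, 64.3 and 71.1 CPM and 58.4, 64.2 and 60.7 CPM in the Inputs (−0.11 ± 0.22, adjusted p = 0.871). *Sh3pxd2a*, an off-target mRNA by the list above, had a like pattern, at 129.6, 40.4 and 67.9 CPM and 642, 595 and 893 CPM in the IPs (3.20 ± 0.25, adjusted p = 2.6e-09). In the UMI libraries *Acaca* was lower in Cre+ than in Cre− IPs (−3.22 ± 0.28, adjusted p = 2.88e-19), as was *Sh3pxd2a* (−2.90 ± 0.29, adjusted p = 4.19e-16). *Sh3pxd2a* had been listed for its pull-down without a tag in this series, so its value is no separate test of that. *Hmbox1*, a homeobox gene (1.67 ± 0.18, adjusted p = 1.43e-06), and *C4b*, a complement gene of astrocytes (2.07 ± 0.23, adjusted p = 1.78e-06), were also among the 12 higher genes with the smallest p. On the lower side *Nell1* (−3.39 ± 0.40, adjusted p = 3.34e-06), *Tcf7l2*, a transcription factor gene of thalamic neurons and oligodendrocytes (−3.00 ± 0.31, adjusted p = 4.98e-07), *Baiap3* (−2.78 ± 0.29, adjusted p = 6.16e-07), *Resp18* (−1.49 ± 0.18, adjusted p = 3.5e-06), *Olfm1* (−1.37 ± 0.17, adjusted p = 5e-06), *Spock1* (−1.57 ± 0.20, adjusted p = 7.43e-06) and *Plekhg1* (−2.37 ± 0.27, adjusted p = 2.82e-06) joined *Prkcd* and the VTA and dorsal-tier genes.

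Input RNA, measured in other libraries, was called in the same direction for 177 of the 614 higher genes (28.8%) and 168 of the 578 lower genes (29.1%), where 5.44% and 6.08% of all these genes were called higher and lower in Inputs. It was called in the opposite direction for 34 and 8. The median log2 fold change of the 614 genes was 1.42 in IPs and 0.26 in Inputs, and of the 578 genes −0.94 and −0.14. Over all 17235 genes tested in the 18 libraries, the region by fraction term was called for 1465 (8.5%).

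The UMI libraries of the same regions gave a comparison in other libraries. The labels do not say whether these came from other mice or other IPs than the full-length libraries. Total UMIs were 34691 to 60728 in the 4 SNr Cre+ IPs and 32620 to 92936 in the 4 SNc Cre+ IPs, with a ratio of geometric means of 0.896 (exact two-sided permutation test, p = 0.714; the smallest p this design allows is 0.0286). SNr Cre+ IPs held 1.601 times the UMIs of the 6 SNr Cre− IPs (17831 to 47720; exact two-sided permutation test, p = 0.0571); the smallest p this design allows is 0.00952. At this depth 22 of 11161 genes were called between SNr and SNc Cre+ IPs (0.197%; 15 higher and 7 lower in the SNr, but 9 and 10 with TMMwsp factors), 74 between the Cre− IPs of these regions (0.663%) and 6 for the difference between those differences (0.0538%).

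*Aldh1a1* was among the 22 genes. It was at 2526, 2415, 2664 and 2996 CPM of scaled UMIs in the SNr Cre+ IPs and at 1104, 907, 1810.4 and 1051 in the SNc Cre+ IPs, without overlap (1.13 ± 0.27, adjusted p = 0.0307). In Cre− IPs it was at 145 to 638 in the SNr and 195 to 419 in the SNc, where the groups overlapped (0.26 ± 0.31, adjusted p = 0.879), and the difference between the Cre+ and the Cre− contrast did not pass (0.87 ± 0.41, adjusted p = 0.666). *Cplx2*, at 758 to 1098 in SNr and 245 to 582 in SNc Cre+ IPs, was called too (1.28 ± 0.29, adjusted p = 0.0156), as was *Slc17a6* on the lower side, from 1 UMI in SNr and 22 in SNc Cre+ IPs (adjusted p = 0.0222), which differed in the Cre− IPs as well (−2.16 ± 0.55, adjusted p = 0.0238). *Anxa1* was at 137 to 291 in SNr and 38.6 to 129 in SNc Cre+ IPs, from 47 and 15 UMIs in all, and did not pass (1.78 ± 0.47, adjusted p = 0.0851). *Prkca* (1.37 ± 0.52, adjusted p = 0.471), *Homer2* (2.32 ± 0.82, adjusted p = 0.385), *Dgkz* (1.25 ± 0.56, adjusted p = 0.578) and *Aldh1a7* (1.14 ± 0.51, adjusted p = 0.578) rested on 33, 15, 21 and 31 UMIs in SNr and 14, 3, 10 and 16 in SNc Cre+ IPs, and *Atp2a3* on 3 and 0. None of the 4 tested genes passed, and *Atp2a3* was not tested.

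*Th* was at 2172 to 2836 in SNr and 865 to 2371 in SNc Cre+ IPs and was not called (0.90 ± 0.28, adjusted p = 0.255). In Cre− IPs it was lower in the SNr, at 20.5 to 217 against 98.5 to 588 (−1.72 ± 0.40, adjusted p = 0.00698), and the difference between the 2 contrasts passed (2.61 ± 0.49, adjusted p = 0.00377). *Gfap* was higher in the SNr in Cre+ (3.32 ± 0.59, adjusted p = 0.000162) and in Cre− IPs (3.13 ± 0.36, adjusted p = 1.04e-10), as *Ppp1r1b* was in Cre− IPs (2.03 ± 0.42, adjusted p = 0.00131). *Bcar1* was higher in SNr than in SNc Cre+ IPs, at 1492 to 2992 against 552 to 810.1 (1.66 ± 0.37, adjusted p = 0.0105), and it was higher in Cre− than in Cre+ IPs (−2.80 ± 0.20, adjusted p = 9.82e-25 for Cre+ over Cre−), at 1785 to 17448 in the SNr and 2907 to 9617 in the SNc. Since *Bcar1* had been listed for its pull-down without a tag in this series, its Cre− over Cre+ difference is no separate test of that.

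**Figure D5:**
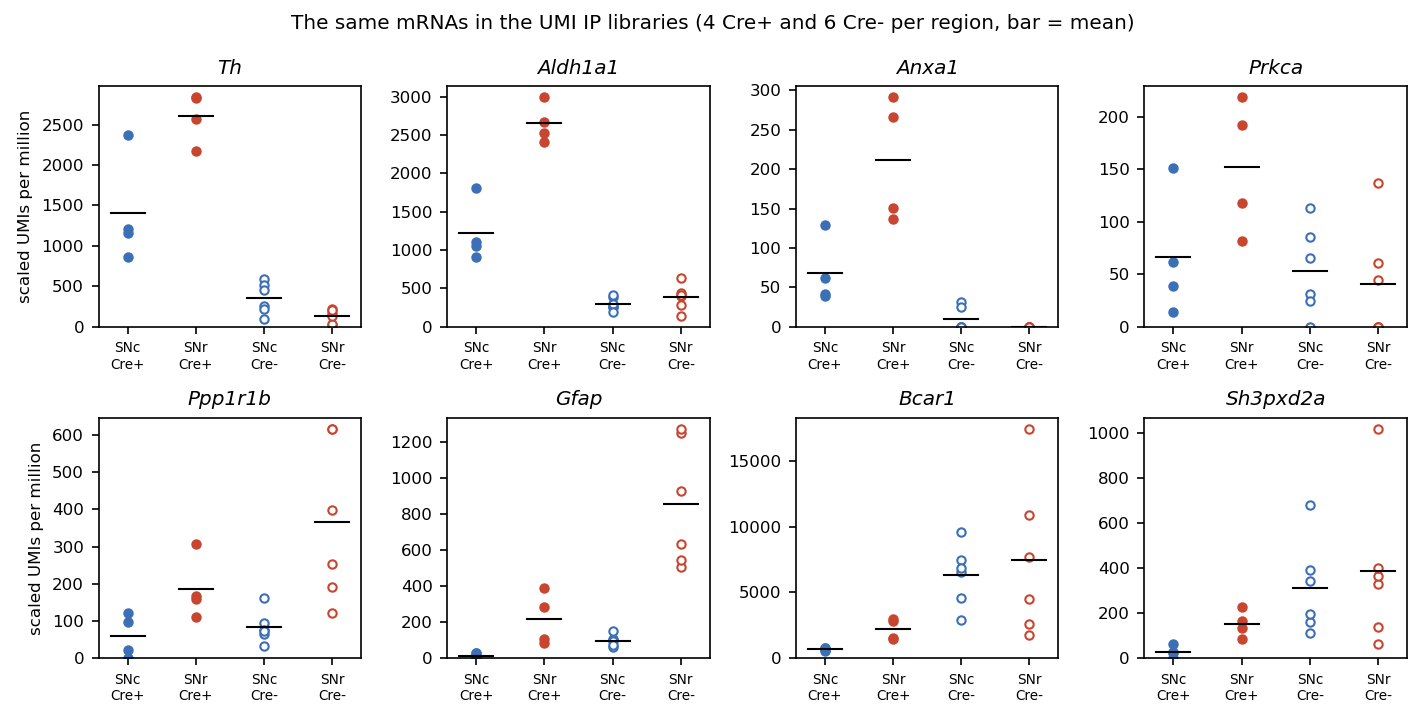
Scaled UMI counts as CPM (vertical axes, linear and starting at 0) of 8 mRNAs in the UMI IP libraries of SNc and SNr, with filled points for the 4 Cre+ and open points for the 6 Cre− libraries per region and bars at the mean. *Aldh1a1* is higher in all 4 SNr Cre+ IPs (2415 to 2996) than in the SNc Cre+ IPs (907 to 1810.4) and low in Cre− IPs, whereas *Gfap* and *Bcar1* reach their highest levels in Cre− IPs.

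Of the genes higher in full-length SNr IPs, the UMI libraries could test 407, and 325 of these (79.9%) had a log2 fold change above 0 between SNr and SNc Cre+ IPs, where 54.9% of all 10254 genes tested in both did. Their median was 0.84, against 0.14 over all those genes. Of 541 lower genes 412 (76.2%) were below 0, where 44.4% of all genes were. In Cre− IPs, in which the antibody has no tagged ribosome to bind, 63.1% of the higher genes were above 0 (53.5% of all genes) and 57.7% of the lower genes were below 0 (46.2% of all genes). Of the 407 higher genes 37 (9.09%) were higher in Cre+ than in Cre− IPs and 115 (28.3%) higher in Cre− IPs, while of the 541 lower genes 173 (31.98%) were higher in Cre+ and 80 (14.8%) in Cre− IPs, where 6.69% and 13.5% of all genes were. Of the 7 ventral-tier genes called, 5 were higher in Cre+ IPs and 0 in Cre− IPs. Of the 7 VTA and dorsal-tier genes called, 3 were higher in Cre+ IPs and 2 in Cre− IPs.

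The SNr IPs can also be set beside the VTA IPs, which share the SNr libraries with the comparison above. Of the 15321 genes, 1471 were higher in SNr than in VTA IPs (9.6%) and 629 lower (4.11%). *Aldh1a1* was at 4293, 3992 and 4035 CPM in the VTA IPs, above the SNc and below the SNr IPs (0.66 ± 0.14, adjusted p = 0.00223 for SNr over VTA), and *Aldh1a7* at 55.7, 58.7 and 57.5 CPM (1.77 ± 0.20, adjusted p = 7.68e-07). *Atp2a3* was at 19.3, 34.5 and 39.1 CPM (1.61 ± 0.30, adjusted p = 0.000472) and *Homer2* at 51.6, 49.9 and 56.7 CPM (0.70 ± 0.23, adjusted p = 0.0421), and *Prkca* was at 523, 569.9 and 580.2 CPM, where the libraries overlapped (0.09 ± 0.23, adjusted p = 0.861). *Satb1* (0.37 ± 0.21, adjusted p = 0.267), *Nr4a2* (−0.54 ± 0.24, adjusted p = 0.14) and *Lmx1b* (−0.13 ± 0.25, adjusted p = 0.787) did not pass between SNr and VTA IPs, and *Th* was lower in the SNr (−0.66 ± 0.19, adjusted p = 0.0185).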

How the data were processed

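For the full-length libraries the authors prepared total RNA with a stranded low-input kit, trimmed the read pairs, discarded ribosomal RNA reads (Bowtie2) and mapped the rest with STAR 2.6.7a, using GRCm38.p6 as the genome; unique hits in GENCODE exons were then summed by featureCounts 1.6, and the deposited values are raw counts per gene in which molecular identifiers had not been collapsed. The 3′-end libraries were deposited as counts of collapsed UMIs. Counts were tested with edgeR 4.0.16 (R 4.3.3; filterByExpr, TMM scaling, quasi-likelihood test) over the 9 full-length IPs, with 1 coefficient per region, and adjusted by Benjamini-Hochberg over all genes tested at 0.05. Standard errors were taken from the fold change and the test's F. Inputs and the region by fraction term were fitted over all 18 full-length libraries, and UMI IPs in fits of their own with DESeq2's size factors and a minimum of 10 UMIs. DESeq2 1.42.0, other scalings, filters and sample sets, and the loss of each library in turn were the alternatives. Tested on simulated counts for the SNr and SNc IPs, the procedure recovered 61 of 100 genes changed 4-fold and 21 of 100 changed 2-fold. Every pair of replicates differed by more than sampling noise. The members and gene lists were chosen with earlier results of these data known. Genes named are the 12 per direction with the smallest p and the 6 with the largest change among called genes of at least median level, up to 4 members per list with the smallest p, the 4 per direction with the smallest p in each other comparison, and 12 genes that the paper names for this comparison; other called members of a list are named to account for it and were chosen after their values were seen. All columns were matched to samples by their labels. Results for some genes are not reported here.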

Additional observations from a re-analysis of the deposited data

Results flagged for a closer look

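Effects of region that differed between fractions or genotypes, by a test of the difference itself, were as follows. The SNr over SNc difference in IPs differed from that in Inputs for 1465 genes (edgeR's quasi-likelihood test, region by fraction term). Among the genes named for this comparison, the term was 2.12 for *Th*, 1.79 for *Ddc*, 1.66 for *Slc6a3*, 1.50 for *Slc18a2*, 1.03 for *Aldh1a1*, 1.81 for *Aldh1a7*, 2.14 for *Atp2a3*, 2.35 for *Homer2* and 1.15 for *Dgkz*, all on the log2 scale. In UMI libraries the SNr over SNc difference in Cre+ IPs differed from that in Cre− IPs for 6 genes, *Th* among them with a log2 difference of 2.61. No sample stood far from its group in the 28 groups of 4 to 10 values looked at, where chance gives about 1 in 20. The full-length SNr and SNc IPs, with 3 libraries per group, were too few for this check.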

How the results depend on the processing

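Between SNr and SNc IPs, 1192 genes were called, against 1220 with DESeq2, 707 with only the 6 SNr and SNc IPs, 3168 with all 18 libraries in the fit and 781 with edgeR's legacy method; leaving out 1 library gave 506 (without SNc replicate 3) to 1408 (without SNc replicate 1), with 585, 647 and 782 without SNc replicate 2, SNr replicate 2 and SNr replicate 3. DESeq2's size factors in edgeR split the calls into 718 higher and 505 lower, where TMM gave 614 and 578, and no called gene changed sign. Leaving out 1 library gave 1076 to 2051 genes between SNr and VTA IPs (2100 with all), 1014 to 1415 between Inputs (1819) and 752 (without SNc Input replicate 1) to 2411 (without SNc IP replicate 1) for the region by fraction term (1465, split 670 higher and 795 lower, but 841 and 635 with DESeq2's size factors and 950 and 754 with DESeq2). Genes enriched in SNc IPs over Inputs numbered 3528 against 3165 depleted, but 3202 and 3471 with DESeq2's size factors. UMI calls were few: 22 between SNr and SNc Cre+ IPs became 34 with no filter and 7 to 25 without 1 library, 74 between Cre− IPs split 51 and 23, but 37 and 39 with TMMwsp factors, and 6 for the difference between genotypes became 18 with DESeq2, 13 with no filter and 3 to 13. The ratio of total UMIs, SNr over SNc Cre+, was 0.896 and ranged from 0.758 to 1.07 without 1 library, reaching 1.00 without SNr replicate 1; that of SNr Cre+ over Cre− ranged from 1.48 to 1.79, where p came to 0.0476 without SNr replicate 1. The causes of these changes were not tested. Of 100 simulated 2-fold changes 21 were recovered, so depth and 3 libraries per group limit what small differences can be seen. No paired analysis was possible because the labels carry no replicate number that ties libraries of different regions.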

Other observations

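Some UMIs in the SNc Cre+ IPs sat in 1 library. *Rab3d* had 283 UMIs in SNc replicate 1 and 0 in the other 3 libraries, and *Nid2* had 31 in replicate 1 and 10 in the others. The highest value for these genes in the 26 other libraries was 1 and 5 UMIs.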
